A study of Mus musculus with 4 samples.

Results

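The genes that write, copy and remove DNA methylation were followed in mouse embryonic stem cells heterozygous for G784E in Smarca4, the motor subunit of BAF chromatin remodelling complexes (mammalian SWI/SNF). The group was a list of 9 genes, Dnmt1, Uhrf1, Dnmt3a, Dnmt3b, Dnmt3l, Tet1, Tet2, Tet3 and Tdg. All were found among the 24428 genes of the count tables. They were chosen by name, with earlier results of these data known. In the G784E cells 1 Smarca4 allele was wild-type and fused to GFP, and the other carried G784E and was fused to the V5 epitope tag. In the WT cells the GFP-fused allele was the same and the V5-fused allele was wild-type. All cells were of strain 129SvEv, grown untreated in medium with serum and LIF, and each genotype had 2 libraries of poly(dT)-captured RNA. The labels name neither the clones behind each genotype nor separate cultures, so that p-values rest on how far these libraries spread, and that spread may be technical.

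In mammals, methyl groups are placed on cytosines of CpG dinucleotides. Dnmt3a and Dnmt3b place them on unmethylated DNA, with Dnmt3l as a catalytically inactive cofactor, and Dnmt1, guided by Uhrf1, copies them to the new strand after replication. The Tet enzymes oxidise methylcytosine, and Tdg excises the oxidised base so that repair can restore an unmodified cytosine. Mouse embryonic stem cells are known to express the de novo methyltransferases and high levels of Tet1 and Tet2, and in serum they carry more DNA methylation than in the ground state held by kinase inhibitors.

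Gene counts per library came to 6226145 and 8895433 in G784E and to 7027108 and 10083442 in WT. The ribosomal RNA precursor Rn45s held 15.98% and 10.55% of these counts in G784E and 11.9% and 10.02% in WT. Levels are given in CPM, counts relative to the library total with TMM scaling, in which 1 count is worth between 0.102 and 0.164. All 9 stem cell markers checked were expressed, with summed levels of 3195 and 3207 CPM in G784E and 2590 and 2918 CPM in WT, and 0 of the 9 passed in edgeR, DESeq2 or limma-voom (1 was higher at an unadjusted p under 0.05 in edgeR). Endoderm markers differed between the groups: their summed level was 587 and 595 CPM in G784E and 5288 and 5593 CPM in WT, and 10 of 11 tested fell. Trophectoderm markers summed to 73.6 and 63.0 CPM in G784E and 114.5 and 119.6 CPM in WT (3 of 7 fell, Krt8, Krt18 and Eomes). Tfap2c of that list was higher in G784E without passing (log2 fold change 0.65, edgeR, adjusted p = 0.215). Primed epiblast markers summed to 82.8 and 70.6 CPM in G784E and 116.2 and 134.5 CPM in WT (1 of 4 tested fell, Otx2). Otx2 alone held 58.7 and 55.8 CPM in G784E and 95.5 and 117.5 CPM in WT. Lef1 was higher without passing (log2 fold change 0.33, edgeR, adjusted p = 0.899). Over all tested genes 1.89% fell. Fibroblast markers summed to 82.0 and 66.9 CPM in G784E and 74.2 and 50.6 CPM in WT, and 0 of 5 tested passed in the same 3 tools (0 at an unadjusted p under 0.05 in edgeR). No marker was at 0 in all 4 libraries. Olfactory receptor genes also had counts, summing to 697.5 and 295.5 CPM in G784E and 634.6 and 197.4 CPM in WT. A count above 0 therefore does not by itself show that a marker was expressed. In these bulk samples, fewer cells of a type and less RNA per cell cannot be told apart.

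Of the 9 genes, 8 had enough counts to be tested in edgeR's quasi-likelihood test over 15763 genes. Dnmt3a rose, Dnmt3l fell, and the other 6 did not pass at a Benjamini-Hochberg adjusted p of 0.05. Over all tested genes 0.672% rose and 1.89% fell. The libraries of the 2 groups did not overlap for 6 of the 8 genes, 4 higher and 2 lower in G784E, and for 38.8% of all tested genes, so that a lack of overlap was common in this design. The median log2 fold change was 0.21 over the 8 genes and -0.002 over all tested genes.

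**Figure D1:**
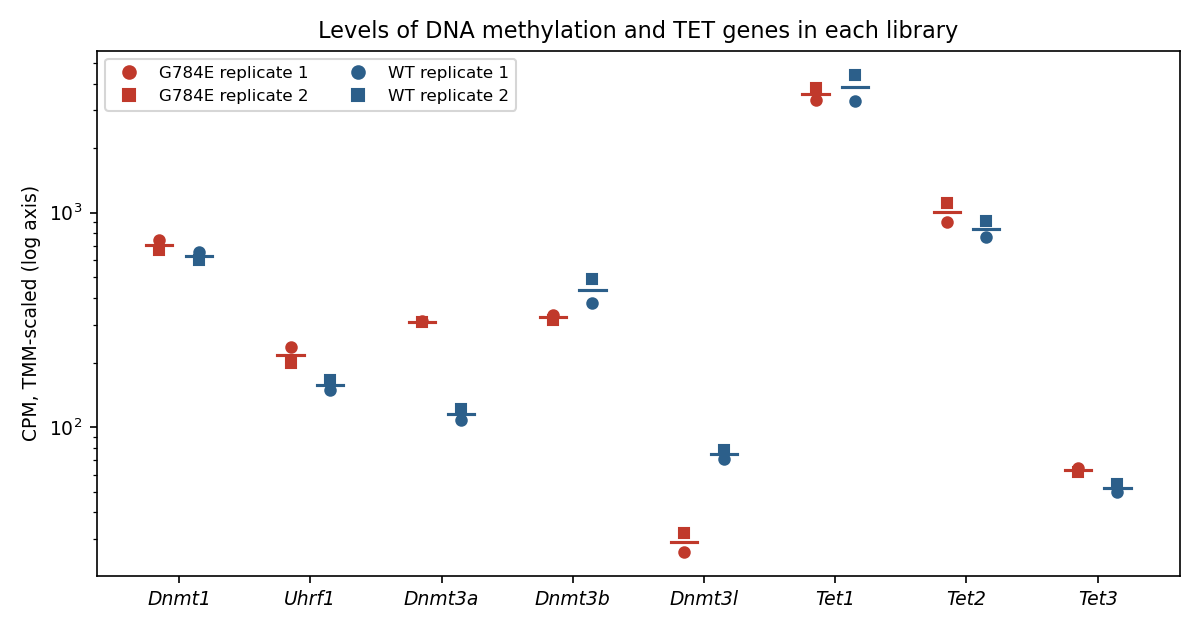
Level of each tested gene in each library, in TMM-scaled CPM on a log axis, with G784E left of WT; circles are replicate 1, squares are replicate 2 and bars are group means. Dnmt3a lies at 308 to 311 CPM in G784E against 108 to 121 CPM in WT, and Dnmt3l at 26.2 to 31.9 CPM against 70.9 to 78.5 CPM.

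Dnmt3a, which encodes a de novo DNA methyltransferase, reached 311 and 308 CPM in G784E, against 108 and 121 CPM in WT. Each G784E library thus held more than either WT library, and the G784E libraries lay within a few CPM of each other. The mean was 309 ± 1.91 CPM in G784E and 115 ± 9.505 CPM in WT (SD, n = 2 each), a 2.70-fold increase (log2 fold change 1.43, SE 0.20, interval at 95% from 1.02 to 1.85; edgeR, adjusted p = 7.88e-05). The difference was 1.53 on the log2 scale between the replicate 1 libraries and 1.34 between the replicate 2 libraries. By p-value Dnmt3a ranked 53 among the 15763 genes.

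Dnmt3a is known to be made from distinct promoters. The transcript from the upstream one encodes the long protein Dnmt3a1, and an internal promoter, known to be the main one in mouse embryonic stem cells, gives the shorter Dnmt3a2, which lacks the N-terminal part. In the annotation, coding transcripts that start at the upstream start have 908 codons and those that start 84.8 kb downstream have 689. The counts are sums per gene and do not say which start was used. The starts also differ in CpG content: of the 300 bases from 250 before to 50 after the start, the upstream window holds 46 CpGs, more than 98.4% of the 32851 promoter windows of the RefSeq table, and the internal window holds 18, more than 70.3%. Both windows are shown here because Dnmt3a, the one gene of the 9 that rose, has a choice between them. The RefSeq sequences are from build GRCm38.p6, 5′ to 3′ on the + strand, at chr12:3806730-3807029 for the upstream start and chr12:3891494-3891793 for the internal start, and capitals mark each CpG.
Dnmt3a upstream start: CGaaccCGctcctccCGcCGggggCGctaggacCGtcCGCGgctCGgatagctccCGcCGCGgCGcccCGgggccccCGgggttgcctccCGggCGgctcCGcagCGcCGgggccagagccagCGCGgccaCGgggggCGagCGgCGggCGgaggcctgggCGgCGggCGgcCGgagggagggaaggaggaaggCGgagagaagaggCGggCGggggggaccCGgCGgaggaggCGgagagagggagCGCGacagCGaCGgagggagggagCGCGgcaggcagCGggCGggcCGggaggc
Dnmt3a internal start: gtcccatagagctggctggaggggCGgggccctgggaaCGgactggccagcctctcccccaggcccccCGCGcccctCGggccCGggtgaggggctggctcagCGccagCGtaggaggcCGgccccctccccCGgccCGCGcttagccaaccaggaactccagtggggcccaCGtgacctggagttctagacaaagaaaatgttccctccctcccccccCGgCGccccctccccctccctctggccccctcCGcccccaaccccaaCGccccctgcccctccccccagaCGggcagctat

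Dnmt3l, the cofactor that stimulates Dnmt3a and Dnmt3b without methylating DNA itself, moved in the opposite direction. It had 26.2 and 31.9 CPM in the G784E libraries and 70.9 and 78.5 CPM in the WT libraries, with no overlap. The mean was 29.05 ± 4.06 CPM in G784E and 74.7 ± 5.35 CPM in WT (SD, n = 2 each), 2.56-fold lower in G784E (log2 fold change -1.36, SE 0.22, interval at 95% from -1.81 to -0.91; edgeR, adjusted p = 0.000399). Within the libraries numbered 1 the log2 difference was -1.44, and within those numbered 2 it was -1.30. The summed endoderm markers were 587 and 595 CPM in G784E and 5288 and 5593 CPM in WT, and their part in the fall of Dnmt3l was not tested. Aire, which overlaps the Dnmt3l locus on the opposite strand without sharing exon sequence, held 7 and 45 counts in G784E and 48 and 80 in WT, against 160 and 271 counts of Dnmt3l in G784E and 537 and 773 in WT.

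Dnmt3l also has several annotated starts, and their windows are poorer in CpG than both windows of Dnmt3a. The first start and a second 7.55 kb downstream each lead to a coding transcript of 421 codons, and their windows hold 6 and 4 CpGs, more than 43.6% and 31.4% of all windows, beside a median of 7 over the table. The share of windows with at least 1 CpG is 94.6%. They are printed, with the single window of Dnmt3b (30 CpGs, more than 88.3% of windows), to set the CpG content of the 3 genes side by side. All are from GRCm38.p6, 5′ to 3′ on the + strand, at chr10:78042037-78042336, chr10:78049592-78049891 and chr2:153649199-153649498, with each CpG in capitals. A CpG count describes the window and says nothing of its methylation in these cells, which was not measured here.
Dnmt3l first start: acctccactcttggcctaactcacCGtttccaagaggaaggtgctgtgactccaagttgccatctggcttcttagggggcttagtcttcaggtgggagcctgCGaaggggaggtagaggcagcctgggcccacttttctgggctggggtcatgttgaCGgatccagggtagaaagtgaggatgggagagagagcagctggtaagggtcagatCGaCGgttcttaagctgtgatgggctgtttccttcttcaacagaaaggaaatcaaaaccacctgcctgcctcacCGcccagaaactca
Dnmt3l second start: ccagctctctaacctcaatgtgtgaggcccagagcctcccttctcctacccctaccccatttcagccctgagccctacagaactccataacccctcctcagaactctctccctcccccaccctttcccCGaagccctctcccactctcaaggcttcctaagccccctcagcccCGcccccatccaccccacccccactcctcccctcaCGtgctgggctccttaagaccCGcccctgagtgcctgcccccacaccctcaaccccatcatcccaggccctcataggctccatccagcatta
Dnmt3b start: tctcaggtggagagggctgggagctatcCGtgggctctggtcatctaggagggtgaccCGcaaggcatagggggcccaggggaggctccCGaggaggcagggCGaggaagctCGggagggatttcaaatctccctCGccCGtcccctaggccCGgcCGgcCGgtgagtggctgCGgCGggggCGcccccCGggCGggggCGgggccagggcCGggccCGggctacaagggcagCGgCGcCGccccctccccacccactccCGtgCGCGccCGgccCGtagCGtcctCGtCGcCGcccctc

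Dnmt3b, the other de novo methyltransferase gene, was at 335 and 314 CPM in G784E and at 380 and 489.9 CPM in WT. The G784E libraries were below both WT libraries, but WT replicate 1 was nearer to both of them than to WT replicate 2. The mean was 324 ± 14.5 CPM in G784E and 435 ± 77.8 CPM in WT (SD, n = 2 each). The log2 fold change of -0.42 (SE 0.20, interval at 95% from -0.84 to -0.01) did not pass the test (edgeR, adjusted p = 0.421), and it was -0.18 between the replicate 1 libraries and -0.64 between the replicate 2 libraries. With the replicate number added to the model, Dnmt3b passed (log2 fold change -0.41, edgeR, adjusted p = 0.0205). Of the 50-base windows of its longest coding transcript, 11.5% also occur in Dnmt3c, a rodent copy of Dnmt3b. Reads from there count for neither gene when placed in more than 1 location.

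The balance of the de novo genes differed between the groups within each library number. Dnmt3a counts were 0.929 and 0.981 times those of Dnmt3b in the G784E libraries and 0.284 and 0.248 times in the WT libraries. As a share of reads in the 2 genes, Dnmt3a took 48.1% (95% Wilson interval 46.6% to 49.7%) and 49.5% (48.2% to 50.9%) in G784E and 22.1% (20.8% to 23.5%) and 19.9% (18.9% to 20.9%) in WT. None of the G784E intervals reached a WT interval, but these intervals cover counting error within a library and not the spread between libraries. The ratio was 3.60-fold higher in G784E (difference of 1.85 on the log2 scale, with an SD between replicates of 0.055 in G784E and 0.14 in WT), at 1.71 and 1.99 within the libraries numbered 1 and 2. An exact two-sided permutation test over the libraries gave p = 0.333, the smallest that this test can give with 2 against 2 libraries, so that it cannot reach 0.05 for a ratio. Library scaling does not enter this comparison. Gene length cancels in it only if both groups use the same isoforms, which the counts do not show, and the ratio is one of reads and not of molecules.

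The summed level of Dnmt3a and Dnmt3b differed less than either part of it. It was 645 and 622 CPM in G784E and 488 and 611 CPM in WT, so that the G784E libraries were above both WT libraries but close to the second of them.

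The ratio of Dnmt3a to Dnmt3l counts was 11.9 and 9.65 in the G784E libraries and 1.52 and 1.55 in the WT libraries. The 95% Wilson intervals ran from 8.52 to 13.9 over the G784E libraries and from 1.37 to 1.70 over the WT libraries. The ratio was 6.98-fold higher in G784E (difference of 2.80 on the log2 scale, SD 0.211 in G784E and 0.016 in WT), at 2.96 and 2.64 within the libraries numbered 1 and 2, and the exact permutation test again gave p = 0.333, its smallest possible value. Both genes passed the test singly and in opposite directions, which makes this ratio the most different of those formed here. The intervals were computed within each library and so reflect counting error alone. PCR duplicates were not marked by molecular identifiers, so that the intervals can be too narrow even for that error.

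**Figure D2:**
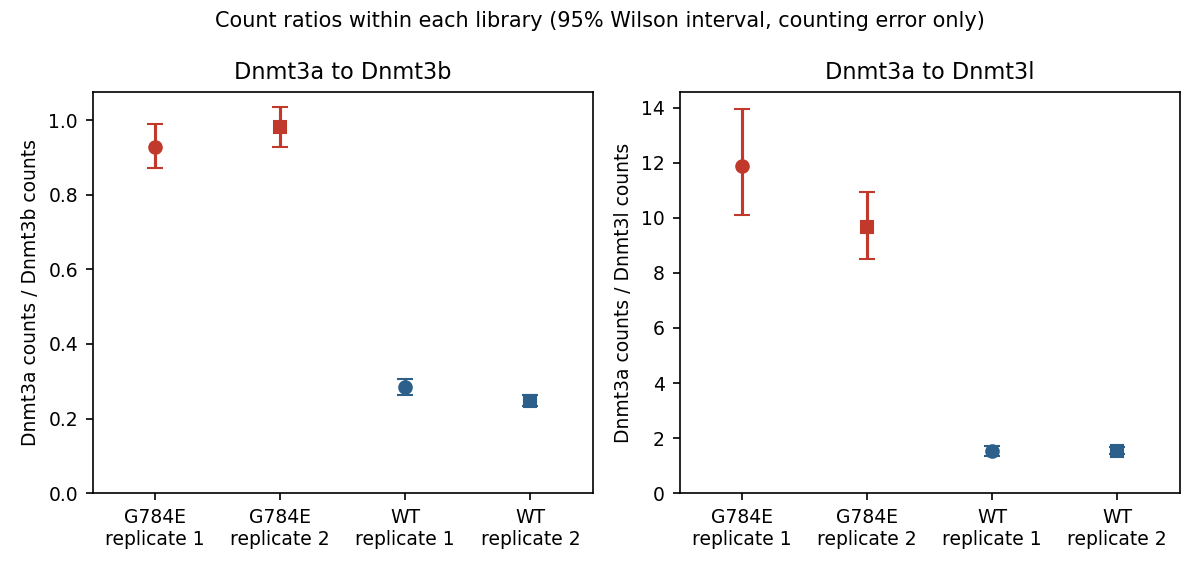
Dnmt3a counts divided by Dnmt3b counts (left panel) and by Dnmt3l counts (right panel) in each library, on linear axes from 0; bars are 95% Wilson intervals, which cover counting error only. The ratios to Dnmt3b are 0.929 and 0.981 in G784E against 0.284 and 0.248 in WT, and those to Dnmt3l are 11.9 and 9.65 against 1.52 and 1.55.

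The maintenance genes did not pass the test, which models the group alone. The labels tie the replicate numbers to no culture or day. With the replicate number added to the model, Uhrf1 passed and Dnmt1 did not (edgeR, adjusted p = 0.0163 and 0.385). Dnmt1, which copies methylation after replication, was at 747 and 670.1 CPM in G784E and at 656 and 605 CPM in WT. The G784E libraries lay just above the WT libraries, by less than the gap between replicates, with a log2 fold change of 0.17 (SE 0.20, interval at 95% from -0.23 to 0.57; edgeR, adjusted p = 0.907). Uhrf1, which brings Dnmt1 to newly replicated DNA, was at 236 and 199 CPM in G784E and at 149 and 165 CPM in WT, without overlap. Its log2 fold change of 0.47 (SE 0.20, interval at 95% from 0.06 to 0.88) did not pass after adjustment (edgeR, adjusted p = 0.324), and it was 0.67 between the replicate 1 libraries and 0.27 between the replicate 2 libraries. Of the 50-base windows of the longest Uhrf1 coding transcript, 18.9% occur in other annotated genes, 18.0% in Gm5648 alone.

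Of the 3 Tet genes 0 passed in edgeR, DESeq2 or limma-voom, and 0 had an unadjusted p under 0.05 in edgeR. Tet1, the main oxidising enzyme of embryonic stem cells, was at 3351 and 3820 CPM in G784E and at 3323 and 4406 CPM in WT, and the groups overlapped (log2 fold change -0.11, SE 0.19, interval at 95% from -0.51 to 0.29; edgeR, adjusted p = 0.975). The sign turned to 0.14 without WT replicate 2 (edgeR, adjusted p = 0.995). Tet2, which lacks the CXXC DNA-binding domain of Tet1, was at 909 and 1108 CPM in G784E and at 767 and 916 CPM in WT, also overlapping (0.26, SE 0.20, interval at 95% from -0.15 to 0.67; adjusted p = 0.758 in edgeR).

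Tet3, best known from the oocyte and zygote, was at 64.1 and 61.4 CPM in G784E and at 49.8 and 54.2 CPM in WT, without overlap (log2 fold change 0.27, SE 0.21, interval at 95% from -0.16 to 0.70; edgeR, adjusted p = 0.759). The intervals of the 3 Tet genes leave room for a difference of up to 0.70 on the log2 scale in one direction and -0.51 in the other. Of the summed level of the Tet genes, Tet1 took 77.5% and 76.6% in G784E and 80.3% and 81.9% in WT, and Tet3 took 1.48% and 1.23% in G784E and 1.202% and 1.01% in WT, shares of reads that are not corrected for length.

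Tdg, the glycosylase that removes oxidised methylcytosine, was hardly counted. It had 1 and 0 counts in the G784E libraries and 0 and 0 in the WT libraries, at or under a floor of 3 counts, which stands for 0.304 to 0.491 CPM. No fold is given. Of the 50-base windows of its longest coding transcript, 66.3% also occur in other annotated genes, 47.4% in the processed copy Tdg-ps and 25.4% in Gm9855, and its exons overlap Glt8d2 on the opposite strand. Between 55.4% and 61.8% of the reads of a table had no unique place and are counted for no gene. The length of the reads is not given in the sources used here, and the part of these losses in the Tdg counts was not tested, so that the Tdg level was not detectable by this counting.

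Compared per kilobase of exon, Tet1 was the highest of the 9 genes in both genotypes, at 249 ± 23.1 CPM per kb in G784E and 269 ± 53.3 CPM per kb in WT (SD, n = 2 each). In G784E it was followed by Dnmt1 (112 ± 8.62), Tet2 (109.6 ± 15.3), Dnmt3b (75.0 ± 3.33), Uhrf1 (59.3 ± 7.29), Dnmt3a (31.2 ± 0.193), Dnmt3l (10.9 ± 1.52) and Tet3 (5.35 ± 0.167), all as CPM per kb. In WT the order was Dnmt3b (100.5 ± 18.0), Dnmt1 (100.1 ± 5.80), Tet2 (91.5 ± 11.4), Uhrf1 (42.8 ± 3.18), Dnmt3l (28.0 ± 2.00), Dnmt3a (11.6 ± 0.956) and Tet3 (4.43 ± 0.267).

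Libraries of Dnmt1 and Tet2 overlapped in G784E, and those of Dnmt3b, Dnmt1 and Tet2 overlapped in WT, so that these neighbours did not differ beyond their spread. The other neighbours in each order did not overlap. Dnmt3a stood above Dnmt3l in both G784E libraries (31.3 against 9.81 CPM per kb in the first and 31.1 against 11.96 in the second) and below it in both WT libraries (10.9 against 26.6 and 12.2 against 29.4). In counts, Dnmt3a was above Dnmt3l in WT too, at ratios of 1.52 and 1.55. The order per kb in WT therefore depends on the summed exon lengths used, 9.913 kb for Dnmt3a and 2.67 kb for Dnmt3l. Exon lengths are from a GRCm38 annotation matched by symbol, while the counts were made on mm9. A gene with several isoforms can also be shorter in these cells than its summed exons.

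**Figure D3:**
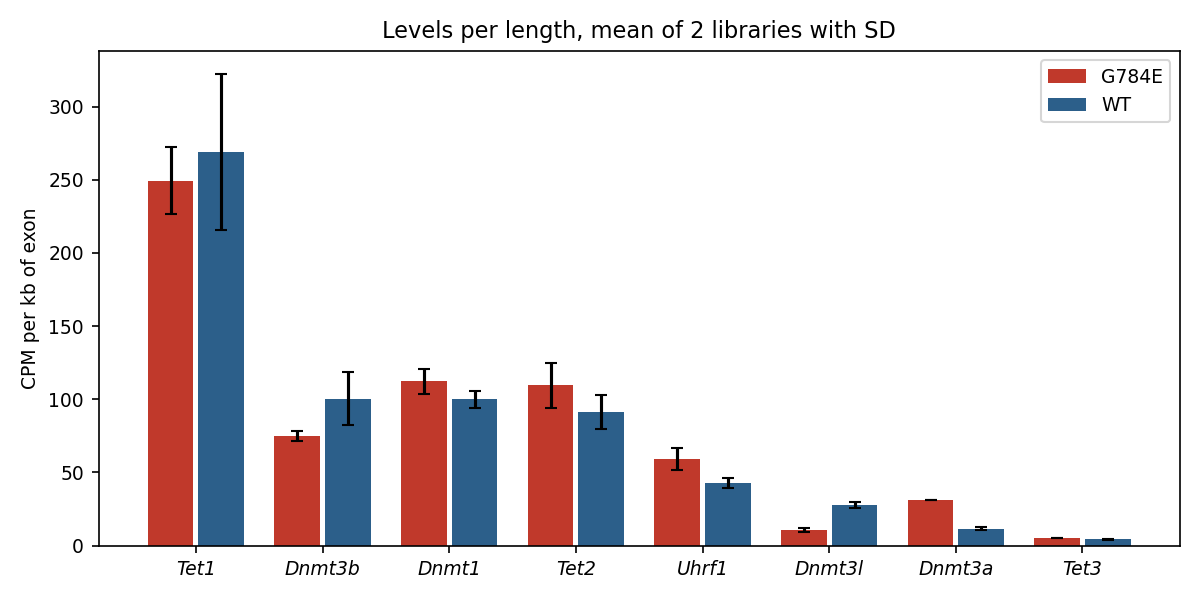
Level of each tested gene in CPM per kb of exon, mean of 2 libraries with the SD as error bar, G784E left of WT, ordered by the WT mean. Tet1 is highest in both groups at 249 CPM per kb in G784E and 269 CPM per kb in WT. Per kb of summed exon, Dnmt3a and Dnmt3l stand in opposite order in the 2 groups. In counts not divided by length, Dnmt3a is above Dnmt3l in each library.

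The other genes of the pathway were taken as 6 lists of 74 genes, 68 of them tested. Of these 68, 2 rose and 0 fell in edgeR (3 and 0 in DESeq2, 4 and 1 in limma-voom), and 9 higher and 2 lower genes had an unadjusted p under 0.05. Over all tested genes 0.672% rose, 1.89% fell, and 5.14% and 6.48% were higher and lower at that unadjusted p. The median log2 fold change of the 68 genes was 0.18. Both genes that rose belonged to the list of germline genes.

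Of 12 tested partners in maintenance and targeting, 0 passed in edgeR, 0 in DESeq2 and 0 in limma-voom, and 0 had an unadjusted p under 0.05 in edgeR; the median log2 fold change was 0.09. Zfp57, the zinc finger protein that protects methylation at imprinted regions, was at 637 and 737 CPM in G784E and at 543 and 760.0 CPM in WT. Usp7, a deubiquitinase that binds Dnmt1 and Uhrf1, was at 465 and 589 CPM in G784E and at 507.5 and 584.5 CPM in WT. In both cases the groups overlapped, with log2 fold changes of 0.08 and -0.05.

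A further list held 10 tested genes, grouped as readers of methylated CpG and their relatives, such as Mbd genes. A place in it does not show that a gene product, such as that of Mbd6, binds methylated CpG. The median log2 fold change was 0.095, and 0 passed in edgeR or DESeq2 (1 higher and 1 lower at an unadjusted p under 0.05 in edgeR). In limma-voom 1 rose, Mbd6, a gene named after its values were seen (log2 fold change 0.80, edgeR, adjusted p = 0.085). Zbtb38, a zinc finger reader, was at 45.0 and 53.7 CPM in G784E and at 57.0 and 54.5 CPM in WT (-0.17, SE 0.21; edgeR, adjusted p = 0.919).

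Among genes of base excision repair and deamination, 0 of 16 tested passed in edgeR, DESeq2 or limma-voom, with 1 higher at an unadjusted p under 0.05 in edgeR and a median of 0.17. Parp1, which senses strand breaks, was at 739.9 and 809.5 CPM in G784E and at 746 and 708 CPM in WT, overlapping. The ligase gene Lig3 averaged 252 ± 3.28 CPM in G784E and 214 ± 7.63 CPM in WT (SD, n = 2 each), without overlap (0.24 on the log2 scale, SE 0.20; edgeR, adjusted p = 0.791).

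Of 8 tested Tet partners and genes that supply 2-oxoglutarate, the Tet cosubstrate, 0 passed in edgeR or DESeq2, and in edgeR 1 was higher and 1 lower at an unadjusted p under 0.05 (median 0.094). In limma-voom 1 was lower, the isocitrate dehydrogenase gene Idh1, named after its values were seen (log2 fold change -0.71, edgeR, adjusted p = 0.227). Idh1 was at 21.8 and 47.6 CPM in G784E and at 58.4 and 55.8 CPM in WT. Its G784E replicate 2 thus lay nearer to both WT libraries than to G784E replicate 1. Hcfc1, a cofactor processed by the Tet partner Ogt, was at 1043 and 1103 CPM in G784E and at 725 and 928 CPM in WT, without overlap (0.38, SE 0.20; edgeR, adjusted p = 0.504). Sin3a, a co-repressor that binds Tet1, was at 364 and 477.5 CPM in G784E and at 364.1 and 384 CPM in WT, overlapping.

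Of 12 tested genes that supply the methyl donor S-adenosylmethionine, 0 passed in edgeR, with 2 higher at an unadjusted p under 0.05 and a median of 0.17. The mitochondrial enzyme gene Shmt2 passed in DESeq2 and limma-voom and is named for that after its values were seen (log2 fold change 0.67; edgeR, adjusted p = 0.0874). Mat2a, which makes S-adenosylmethionine, was at 583 and 716 CPM in G784E and at 339 and 564 CPM in WT, without overlap (0.52, SE 0.23; edgeR, adjusted p = 0.331). The folate enzyme gene Mthfd1 was at 180.0 and 171 CPM in G784E and at 204.0 and 194 CPM in WT, without overlap (-0.18, SE 0.20; edgeR, adjusted p = 0.891).

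The last list held 13 germline genes known to be silenced by promoter methylation in somatic or embryonic cells, of which 10 were tested. Ddx4 and Sycp1 rose, 0 fell, and 8 did not pass (4 higher and 0 lower at an unadjusted p under 0.05 in edgeR; the same 2 and 0 counts in DESeq2 and limma-voom). The list median was 0.72, and 7 of the 10 lay higher without overlap and 0 lower, beside 19.4% of all tested genes each way. The list was chosen with earlier results of these data known, so that these shares are not an independent comparison. The summed level was 110.6 and 111.0 CPM in G784E and 56.6 and 58.1 CPM in WT.

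Ddx4, an RNA helicase of germ cells, was at 33.0 and 39.2 CPM in G784E and at 15.8 and 17.2 CPM in WT (1.13 on the log2 scale, SE 0.24; edgeR, adjusted p = 0.00883). Its call was lost when either WT library was left out (1.07 without WT replicate 1 and 1.22 without WT replicate 2; edgeR, adjusted p = 0.205 and 0.0832). Sycp1, a synaptonemal complex protein, was at 9.0 and 10.8 CPM in G784E and at 2.64 and 2.54 CPM in WT (1.93, SE 0.49; edgeR, adjusted p = 0.0293). Its call was lost when WT replicate 1, WT replicate 2 or G784E replicate 2 was left out (edgeR, adjusted p = 0.149, 0.234 and 0.217), or with upper-quartile scaling (adjusted p = 0.0612 in edgeR). Tex19.1, a germline and placental gene, was at 24.7 and 13.4 CPM in G784E and at 12.9 and 11.8 CPM in WT and did not pass (0.62, SE 0.31; edgeR, adjusted p = 0.457). The methylation of these promoters was not measured here.

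**Figure D4:**
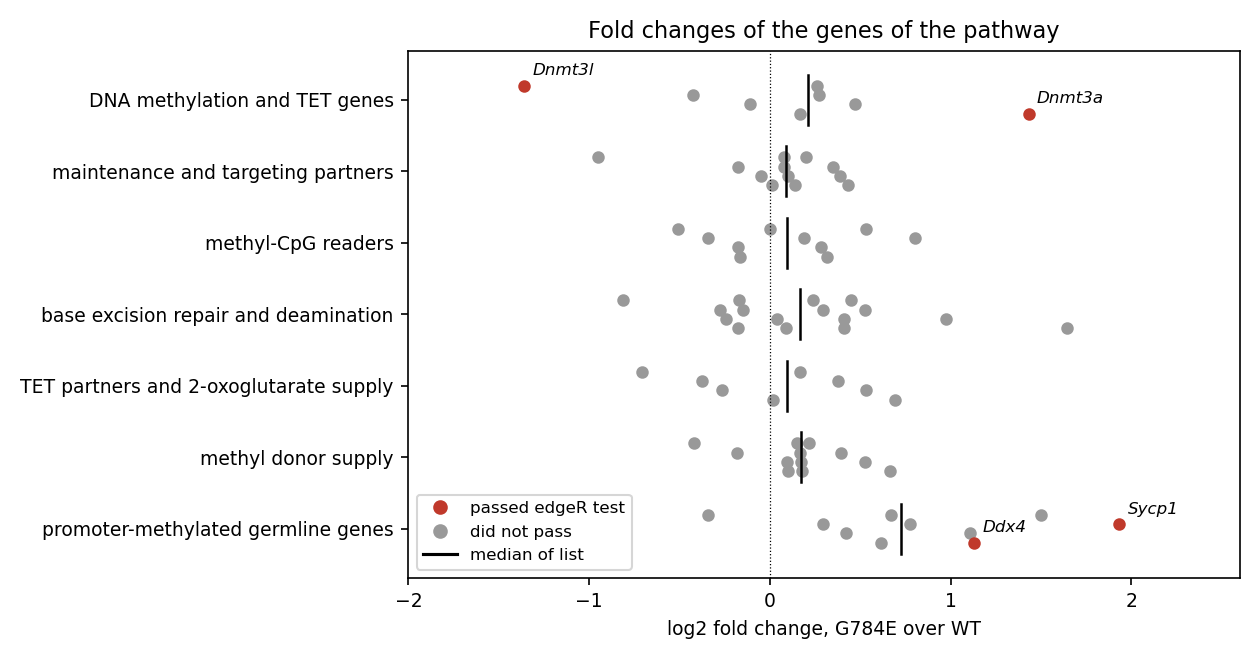
Log2 fold change of each tested gene, G784E over WT, for the DNA methylation and Tet genes and for the 6 pathway lists; red points passed the edgeR test at an adjusted p of 0.05, grey points did not, and black bars are list medians. Dnmt3a, Ddx4 and Sycp1 are the genes that rose and Dnmt3l the gene that fell.

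The genes whose levels followed Dnmt3a and Dnmt3l most closely were sought among 6161 tested genes with a mean of at least 20 CPM, by the distance between log2 CPM values centred on each gene's mean over the 4 libraries. Nearest to Dnmt3a were Nphs1, Gli2 and Erf, at distances of 0.186, 0.216 and 0.228. Nphs1, for example, was at 93.1 and 80.5 CPM in G784E and at 31.6 and 37.5 CPM in WT. Nearest to Dnmt3l were Cpd, Cldn6 and Atp1b1, at distances of 0.047, 0.054 and 0.111, with Cpd at 27.8 and 34.4 CPM in G784E and at 77.8 and 82.3 CPM in WT. With 4 libraries this likeness mainly restates the size of the group difference and carries no test.

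**Figure D5:**
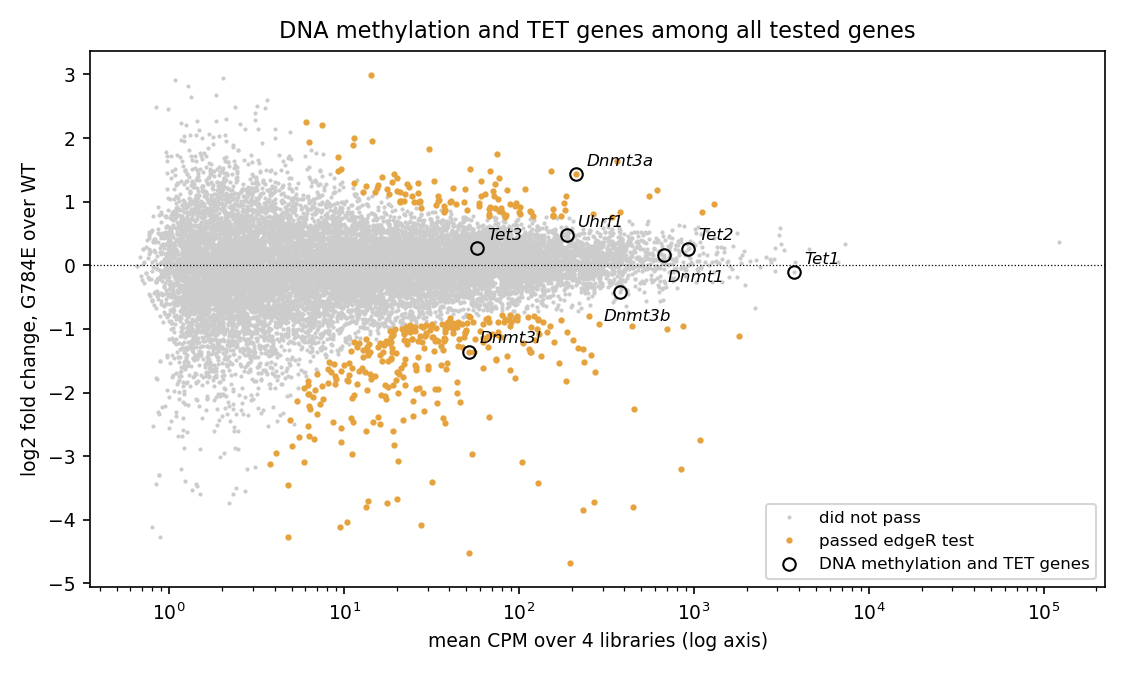
Log2 fold change, G784E over WT, of all 15763 tested genes against their mean CPM over 4 libraries on a log axis; orange points passed the edgeR test and open circles mark the DNA methylation and Tet genes. Dnmt3a (1.43) and Dnmt3l (-1.36) lie among the genes that passed, and the other 6 lie among those that did not, Tet1 at the highest level.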

How the data were processed

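RNA-seq counts of 4 libraries (2 G784E, 2 WT), grouped and numbered by their labels, were used. The authors deposited raw read counts by gene, in a table for each library; the submitters' processing notes name HTSeq, DESeq2, Bowtie2 2.1.0, CASAVA 1.8.2 and build mm9. The annotation, the counting mode or any use of strand is not given in the sources used here, so that reads of overlapping genes on opposite strands cannot be told apart. The labels call the source genomic, although the protocol describes mRNA. Summary rows (83.3% to 88.7% of the reads of a table) entered neither library sizes nor tests.

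The test was edgeR 4.0.16 (R 4.3.3) with TMM scaling, filterByExpr (minimum count 10, minimum total 15), group alone in the model and 2 residual degrees of freedom, fitted on the whole table. The SE is the log2 fold change over the root of F, and intervals use a t quantile with 23.4 degrees of freedom, which draw on a variance shared over genes. Ratios within a library were compared by an exact permutation test, and read shares have Wilson intervals. Alternatives were other scalings and filters, DESeq2 1.42.0, limma-voom (limma 3.58.1), no Rn45s, a replicate block and each library left out, with the filter applied anew. The procedure was tested on simulated data that held no difference between replicate numbers. That test therefore does not show how such a difference bears on the calls. The members and lists were chosen with earlier results of these data known.

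All 9 members are named, and of each list the genes that passed and the 2 with the highest mean CPM; a gene chosen by this rule is not reported here. Promoter windows are from RefSeq (GRCm38.p6), matched by symbol for 9 of 9 members, and exon lengths and transcripts from GENCODE for the same build.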

Additional observations from a re-analysis of the deposited data

How the results depend on the processing

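Dnmt3a and Dnmt3l kept their direction and their call in each of 11 alternatives that model the group alone, with log2 fold changes of 1.34 to 1.55 and -1.59 to -1.23 and adjusted p of at most 0.00159 and 0.0108 in edgeR, DESeq2 and limma-voom. The ratio of Dnmt3a to Dnmt3b differed by 1.75 to 1.95 on the log2 scale and that to Dnmt3l by 2.65 to 2.95 over 6 alternatives each. Dnmt1, Uhrf1, Dnmt3b, Tet2 and Tet3 kept their sign and passed in none of the 11. Tet1 ran from -0.31 to 0.14 with a library left out and turned positive, at 0.14, without WT replicate 2. Of pathway genes, 4 were higher and 1 lower in limma-voom. With a library left out, 0 to 3 pathway genes were higher and 0 to 1 lower, and the cause was not tested. Its group then has a single library, taken to vary as the other group does. The share of higher genes among all genes called was 26.2%, and it was 14.8% without WT replicate 1.

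The replicate numbers are shared by the groups, but the labels tie them to no culture or day. The libraries did differ by number in both groups. Summary rows took 88.3% (G784E) and 88.7% (WT) of reads in replicate 1, and 83.75% and 83.3% in replicate 2. Olfactory receptor genes summed to 697.5 (G784E) and 634.6 CPM (WT) in replicate 1, and to 295.5 and 197.4 CPM in replicate 2. What sets the numbers apart was not tested. Across 6161 genes the difference of replicate 1 from replicate 2 correlated at 0.192 between the groups. With the replicate block, Uhrf1 (0.47, edgeR, adjusted p = 0.0163) and Dnmt3b (-0.41, edgeR, adjusted p = 0.0205) also passed, so that 2 members were higher and 2 lower. Of pathway genes, 9 were then higher (Ctcf, Ddx4, Hcfc1, Mael, Mat2a, Mbd6, Shmt2, Sycp1 and Ung) and 1 lower (Idh1). Over all genes, calls went to 546 higher and 658 lower with the block, beside 106 higher and 298 lower without it. The ratio differences are the same with the block by construction. Tdg lay at or under the floor of 3 counts, where no fold can be given.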

Other observations

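A further 3 ratios within libraries, chosen after the values were seen, are given as values. Dnmt3b to Dnmt3l counts stood at 12.8 and 9.84 in G784E and at 5.36 and 6.24 in WT. Tet1 to Tet2 counts stood at 3.69 and 3.45 in G784E and at 4.33 and 4.81 in WT, so that Tet1 was 1.28-fold lower relative to Tet2 in G784E although neither gene passed the test singly. Dnmt1 to Uhrf1 counts stood at 3.16 and 3.37 in G784E and at 4.41 and 3.66 in WT. For each of the 5 ratios formed, the groups did not overlap. Of all tested genes taken singly 38.8% did not overlap, and the share for ratios of 2 genes was not computed. The ratios among Dnmt3a, Dnmt3b and Dnmt3l share genes, and 3 of the 5 were chosen after the values were seen. The 5 are therefore neither independent nor unselected. For each, the exact permutation test gave p = 0.333 (0.333 after Benjamini-Hochberg adjustment over the 5). That is the smallest that this test can give with 2 against 2 libraries.

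Dnmt3aos, the antisense RNA within the Dnmt3a locus, had 2 and 0 counts in G784E and 7 and 4 counts in WT, too few for a comparison and without exons shared with Dnmt3a in the annotation.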
